A study of Rattus norvegicus with 6 samples.

Results

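The genes described here encode the prostaglandin pathway of the rat kidney, from the release of arachidonic acid to the receptors of prostaglandin E2 (PGE2). They are Pla2g4a, Ptgs1, Ptgs2, Ptges, Ptges2, Ptgds, Ptger1, Ptger2, Ptger3 and Ptger4, chosen by gene symbol, with the brightest transcript cluster (the array's set of probes for a transcript) taken for each gene. All 10 were measured, among 18166 named genes. Kidney RNA of 3 SJG-treated rats and of 3 diabetic rats was hybridized to Affymetrix Rat Gene 2.0 ST arrays, with 1 array per sample. The SJG group consisted of Sprague Dawley rats, 17 weeks of age, with diabetes induced by streptozotocin, a toxin of the insulin-producing beta cells, at 60 mg/kg, which then received Shenqi Jiangtang Granule (SJG), an extract of several herbs, by mouth. The labels give no dose. The text of the study ties the arrays to the higher of its doses, and a lower-dose group was not analysed here. The higher dose was 800 mg/kg each day, given over 8 weeks. The diabetic group consisted of rats of the same strain, age and streptozotocin treatment that received saline. All 6 arrays are thus of diabetic rats, and no array of a rat without diabetes was analysed here. A high-fat diet is named for the rats elsewhere in the study but neither in its methods nor in the labels, so whether all groups received it is uncertain. The methods name the kidney cortex as the source of the RNA, while the labels give kidney. Samples are numbered in the labels and no animal is named, so that p-values cover the spread among these arrays only, and some of it may be technical. A code in the sample titles has 1 number in each group, and the treatment and whatever this code stands for cannot be told apart.

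Prostaglandins are made on demand from arachidonic acid. Phospholipases release the acid from membranes, the cyclooxygenases Ptgs1 and Ptgs2 turn it into prostaglandin H2, and terminal synthases turn that into PGE2, prostaglandin D2 or other prostanoids, which leave the cell and act on receptors of nearby cells. In the kidney, PGE2 adjusts salt and water transport in the thick ascending limb and collecting duct, renin release and blood flow, and Ptgs2 is made by cells of the macula densa and by interstitial cells.

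Of the 10 genes, the PGE2 receptor gene Ptger3 was lower in the SJG-treated rats. The other 9 missed the thresholds, a fold change above 1.5 together with an unadjusted p under 0.05. Over all named genes, 2.12% were lower and 0.991% were higher at these thresholds, or 3.11% in either direction, so that 1 of 10 is a small count. After adjustment over all genes 0 of 18166 passed in limma, with 1133 (6.24%) at an unadjusted p under 0.05, of which Ptger3 was the only prostaglandin gene. Without diabetic replicate 3, 166 genes passed after adjustment, and with any other array left out 0 did. The SJG and diabetic arrays overlapped in all 10 prostaglandin genes, while 10.5% of all genes did not overlap (5.3% lower and 5.2% higher with SJG). The fold change was negative in 5 of the 10 and positive in 5, with a median log2 fold change of 0.02, against a median of 0.0018 over all genes. In every one of the 10, the diabetic arrays alone spanned a wider range than the difference between the group means, which also held for 87.1% of all genes. The range was wider among the diabetic arrays than among the SJG arrays in 9 of the 10, and in 55.9% of all genes.

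Markers of kidney tubules ranged from bright to dim. Umod, which encodes uromodulin of the thick limb, had log2 signals of 11.9 to 12.0 with SJG and 11.4 to 11.7 in the diabetic rats, and the phosphate carrier gene Slc34a1 of the proximal tubule had 11.9 to 12.1 with SJG and 11.8 to 12.4 in the diabetic rats. Pvalb of the distal convoluted tubule had 2.87 to 3.63 with SJG and 3.09 to 3.20 in the diabetic rats. Other markers of that segment were bright. Slc12a3 had 9.83 to 10.5 with SJG and 9.49 to 10.4 in the diabetic rats, and Calb1 had 10.1 to 10.8 and 9.36 to 10.5. All of these tubule genes were chosen after their values were seen. Of 9 macrophage markers 6 were lower with SJG and none was higher. Their mean log2 signal was 6.05 to 6.26 on the SJG arrays and 6.25 to 7.50 on the diabetic arrays, where diabetic replicate 3 had the lowest value. Both measured red cell genes were higher with SJG and their groups did not overlap, Hba-a1 by 1.202 and Hbb-b1 by 1.39 (log2), with a mean of 8.09 to 9.0 on the SJG arrays and 6.17 to 7.75 on the diabetic arrays. Of 3 smooth muscle and pericyte markers 1 was lower, Pdgfrb (-0.74), while Tagln had -0.23 and Myh11 had 0.40. The mean of these markers was 6.98 to 7.33 on the SJG arrays and 7.08 to 7.82 on the diabetic arrays. Hba-a1, Hbb-b1, Pdgfrb, Tagln and Myh11 were also named after their values were seen. The part of these cell types in the values of the prostaglandin genes was not tested. In RNA of a whole tissue, fewer cells of a type and less RNA per cell cannot be told apart. Of the 18166 genes 180 were higher and 385 lower, or 264 higher and 319 lower with each array centred on the median of its named genes.

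**Figure D1:**
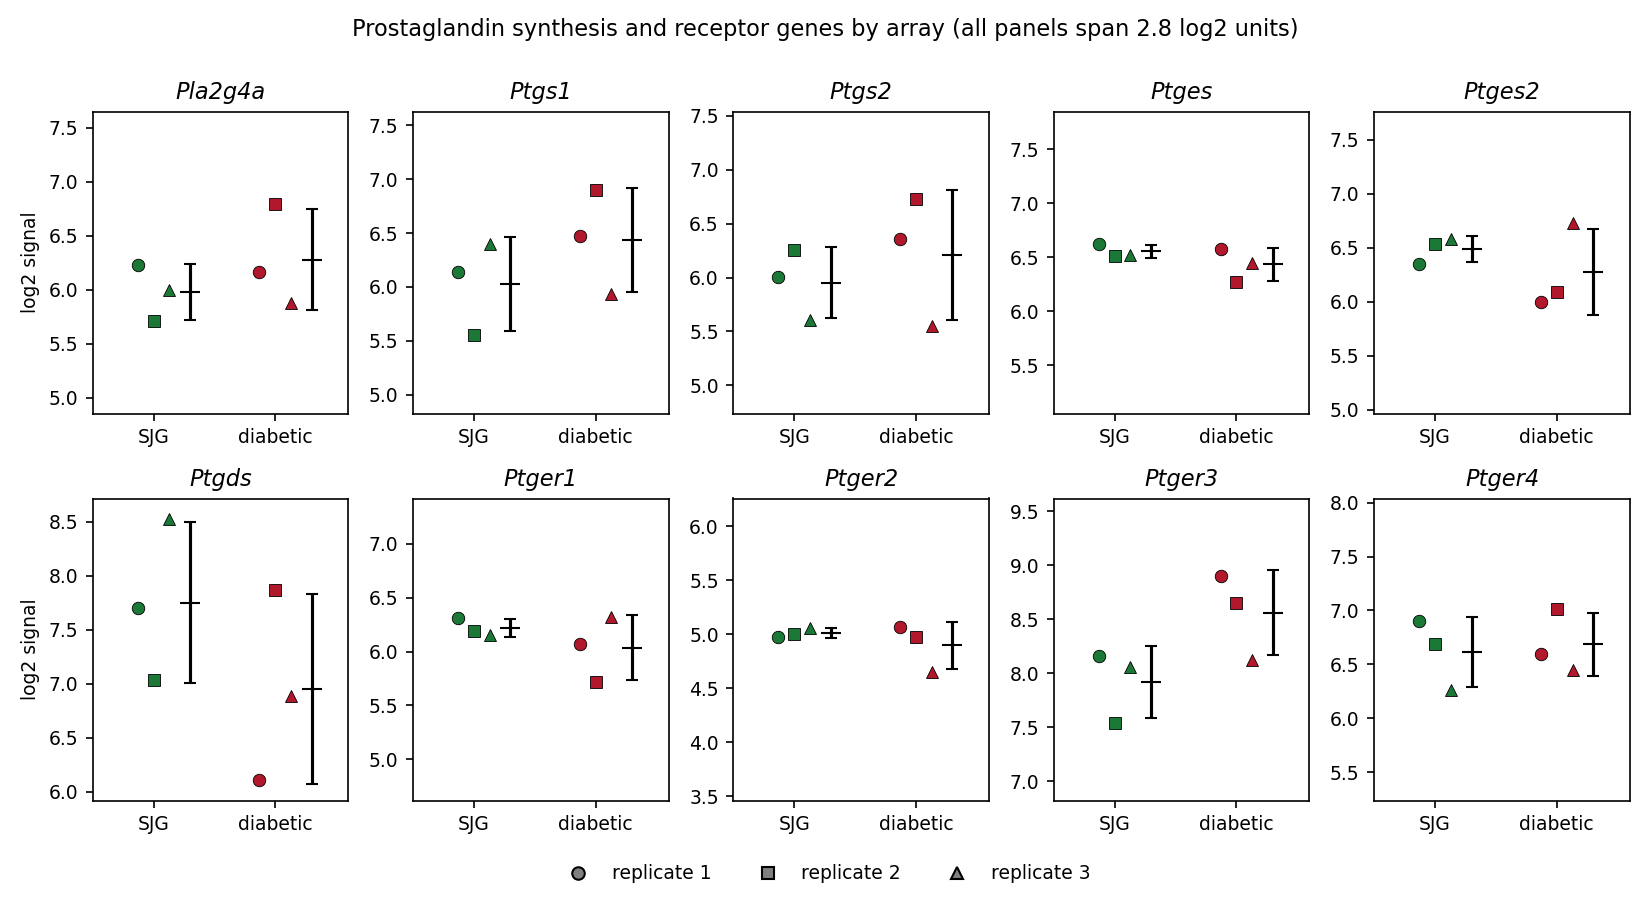
Log2 signal of the 10 prostaglandin genes on each array, SJG on the left and diabetic on the right of each panel, with the symbol giving the replicate and the bar the mean ± SD of 3 arrays. The groups overlap in each panel, Ptger3 by the least (0.03 log2 units), and diabetic replicate 2 is the highest array for Pla2g4a, Ptgs1, Ptgs2 and Ptger4.

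The sequences before the annotated start of 3 of these genes are shown because Ptger3 was the one that passed and because Ptgs2 and Ptges are the inducible pair of the pathway. They are the 250 bases before the start in RefSeq (GRCr8), with capitals for the motifs found. The search covered both strands for C/EBP (TTNNGNAAT), EGR (GCGNGGGCG), CRE (TGACGTCA), AP-1 (TGANTCA), the E-box (CACGTG), the GC box (GGGCGG) and the NF-kB consensus.
Ptger3, chr2:249264832-249265081, plus strand: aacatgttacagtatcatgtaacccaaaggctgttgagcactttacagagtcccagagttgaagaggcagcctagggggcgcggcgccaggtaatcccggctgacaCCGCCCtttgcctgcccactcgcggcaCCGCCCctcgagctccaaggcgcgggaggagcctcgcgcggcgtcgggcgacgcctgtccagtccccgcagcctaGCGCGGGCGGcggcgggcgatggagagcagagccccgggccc
Ptgs2, chr13:64713813-64714062, plus strand: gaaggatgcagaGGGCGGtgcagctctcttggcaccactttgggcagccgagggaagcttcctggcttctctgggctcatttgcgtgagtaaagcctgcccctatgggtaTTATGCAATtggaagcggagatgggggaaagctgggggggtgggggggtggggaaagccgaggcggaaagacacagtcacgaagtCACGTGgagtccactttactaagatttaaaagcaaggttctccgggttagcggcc
Ptges, chr3:34586988-34587237, minus strand: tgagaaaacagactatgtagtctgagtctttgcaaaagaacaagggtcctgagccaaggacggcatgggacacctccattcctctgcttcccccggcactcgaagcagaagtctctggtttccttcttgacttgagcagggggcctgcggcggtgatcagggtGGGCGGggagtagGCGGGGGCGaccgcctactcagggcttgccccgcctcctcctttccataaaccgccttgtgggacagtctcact
The Ptgs2 sequence held a C/EBP motif 140 to 132 bases before the start, an E-box and a GC box. The Ptges sequence held an EGR motif 74 to 66 bases before the start, separate from its GC box. The Ptger3 sequence held an EGR motif, which overlaps a GC box, and 2 more GC boxes. Among 33469 promoters of the same length, 10.9% held the C/EBP motif, 4.29% the EGR motif, 5.59% the E-box and 30.5% the GC box. Of the 9 prostaglandin genes with a promoter sequence, 1 held the C/EBP motif, 2 the EGR motif and 5 the GC box, and none held the CRE, AP-1 or NF-kB motif in this window (1.59%, 6.34% and 6.33% of all promoters). A match describes the letters only.

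Ptger3 encodes the receptor EP3, which couples to an inhibitory G protein and lowers cyclic AMP. In the rat kidney it is known from the thick ascending limb and the collecting duct, where it opposes vasopressin. Its log2 signals were 8.16, 7.54 and 8.06 on SJG replicates 1 to 3, against 8.90, 8.65 and 8.13 on diabetic replicates 1 to 3. The highest SJG array thus lay 0.03 above the lowest diabetic array, and SJG replicate 2 and diabetic replicate 1 stood farthest from the other arrays of the gene. The means were 7.92 ± 0.33 with SJG and 8.56 ± 0.40 in the diabetic rats (SD, n = 3 arrays each). The log2 fold change was -0.64 with a standard error of 0.24 and a 95% interval of -1.17 to -0.12, so that Ptger3 was 1.56-fold lower (limma, adjusted p = 0.761). Without SJG replicate 2 it was -0.45, without diabetic replicate 1 it was -0.47 and without diabetic replicate 2 it was -0.60, and in these 3 cases Ptger3 no longer passed. Without diabetic replicate 3 it was -0.86, and its sign was negative whichever array was left out. It also failed with the unmoderated test of each gene on its own.

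No marker of the segments known to carry EP3 passed the thresholds. None of 4 thick limb markers did, with a mean log2 signal of 9.18 to 9.54 on the SJG arrays and 9.13 to 9.35 on the diabetic arrays. Slc12a1, which encodes the sodium-potassium-chloride carrier of this segment, differed by 0.07 (log2, standard error 0.17), and Umod by 0.37 with arrays that did not overlap. None of 6 collecting duct markers passed, with a mean of 7.51 to 7.76 on the SJG arrays and 7.49 to 7.68 on the diabetic arrays. The water channel gene Aqp2 differed by 0.03 (log2, standard error 0.21). None of 3 measured markers of the medulla passed either, with 2 negative fold changes, 1 positive and a median of -0.33 (log2). Their mean was 5.32 to 5.89 on the SJG arrays and 5.67 to 6.12 on the diabetic arrays, with SJG replicate 2 the lowest. The part of these segments and of the medulla in the change of Ptger3 was not tested.

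The other receptor genes of PGE2 were close between the groups. Ptger4 encodes EP4, which raises cyclic AMP and takes part in renin release. Its log2 signals were 6.90, 6.69 and 6.26 with SJG, against 6.60, 7.01 and 6.45 in the diabetic rats, so that each group had arrays at both ends of the range. The log2 fold change was -0.07 (95% interval -0.55 to 0.41), and its sign changed with quantile normalization. Ptger2 encodes EP2, the other receptor that raises cyclic AMP. It had 4.97, 5.0 and 5.06 with SJG, against 5.07, 4.97 and 4.65 in the diabetic rats. The SJG arrays lay within 0.09 of each other, and diabetic replicate 3 was below all others. Ptger2 had 2 transcript clusters, which held identical values on every array and so gave 1 measurement. Its mean signal was below the median of all genes, the only one of the 10 for which this was so. Ptger1 encodes EP1, which raises calcium and inhibits sodium uptake in the collecting duct. Its values were 6.31, 6.19 and 6.15 with SJG, against 6.07, 5.72 and 6.32 in the diabetic rats, with the highest and the lowest array both among the diabetic rats. The log2 fold changes of Ptger2 and Ptger1 were 0.11 (95% interval -0.27 to 0.50) and 0.18 (95% interval -0.24 to 0.60). With 1 array left out, Ptger1 had 0.02 (without diabetic replicate 2) to 0.32 (without diabetic replicate 3). The intervals of Ptger4, Ptger2 and the synthase gene Ptges lay within a change of 1.5-fold in either direction, as 3 of the 10 did. For the other genes that did not pass, a change of that size was within the interval.

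**Figure D2:**
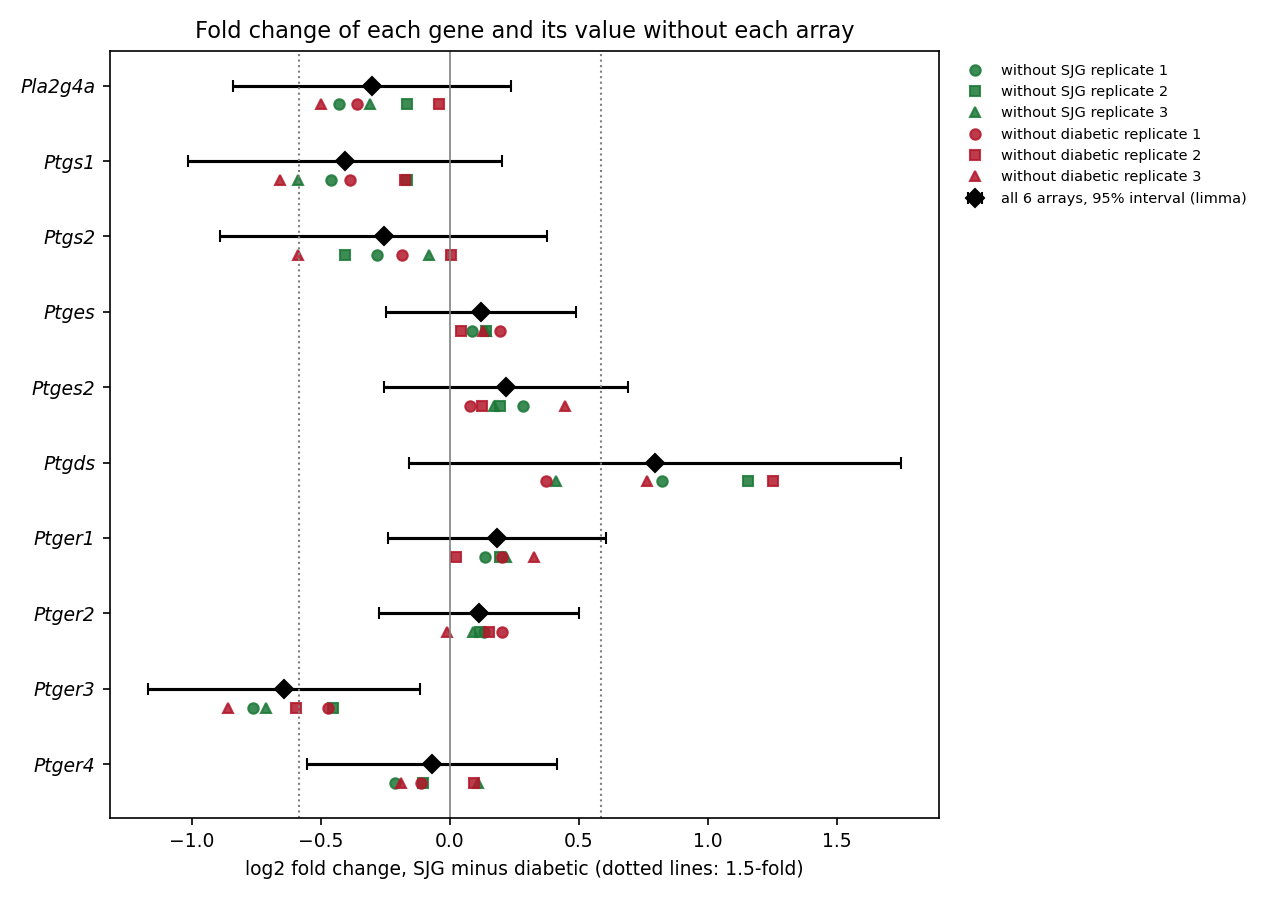
Log2 fold change (SJG minus diabetic, horizontal axis) of each gene with its 95% interval from limma (diamonds and bars, all 6 arrays), and below each bar the value with 1 array left out (green for an SJG array, red for a diabetic array, symbol for the replicate). Ptger3 stays below 0 in all 6 cases, between -0.86 and -0.45, while Ptgs2 ranges from -0.59 without diabetic replicate 3 to 0.0028 without diabetic replicate 2.

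Pla2g4a and the cyclooxygenase genes Ptgs1 and Ptgs2 had lower means with SJG, and none of the 3 passed. Pla2g4a encodes cytosolic phospholipase A2, which releases arachidonic acid when calcium rises. Its log2 signals were 6.23, 5.71 and 6.0 with SJG, against 6.16, 6.80 and 5.88 in the diabetic rats. Only diabetic replicate 2 lay above the SJG range. Pla2g4a differed by -0.30 (log2, standard error 0.24; limma, adjusted p = 0.832). Ptgs1 encodes the constitutive cyclooxygenase COX-1, known from collecting duct and mesangial cells. It had 6.14, 5.55 and 6.40 with SJG, against 6.47, 6.90 and 5.94 in the diabetic rats. SJG replicate 2 was the lowest array and diabetic replicates 1 and 2 were above the SJG range. For Ptgs1 the log2 fold change was -0.41 with a standard error of 0.28 (limma, adjusted p = 0.801). Ptgs2 encodes the inducible cyclooxygenase COX-2. It had 6.0, 6.25 and 5.60 with SJG, against 6.35, 6.73 and 5.55 in the diabetic rats, where replicate 3 was the lowest of all 6 arrays. Its difference was -0.26 (log2, standard error 0.29; limma, adjusted p = 0.871). Nos1, a marker of the macula densa, differed by 0.04.

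Pla2g4a, Ptgs1 and Ptgs2 depended on which arrays were in the comparison. Without diabetic replicate 3, Ptgs1 and Ptgs2 were lower with SJG, at log2 fold changes of -0.66 and -0.59, and Pla2g4a had -0.50 and did not pass. In that comparison 1449 of all genes passed the thresholds, against 565 with all arrays. Without diabetic replicate 2, the values were -0.17 for Ptgs1, 0.0028 for Ptgs2 and -0.04 for Pla2g4a. They also moved with the SJG arrays. Without SJG replicate 2 they were -0.17 for Ptgs1, -0.41 for Ptgs2 and -0.17 for Pla2g4a. Without SJG replicate 3 they were -0.59, -0.08 and -0.31 in the same order. The 2 cyclooxygenase genes were also set against each other within each array. The log2 signal of Ptgs2 minus that of Ptgs1 was -0.14, 0.70 and -0.79 with SJG, against -0.12, -0.17 and -0.39 in the diabetic rats, a difference of 0.15 between the group means (two-sided exact permutation test, p = 0.8, with 0.1 the smallest p that 3 against 3 arrays allow). With so few arrays this test cannot tell if the 2 genes changed unequally.

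Pla2g4a and Ptgs2 are neighbours among the protein-coding genes of chromosome 13 in the RefSeq annotation of the assembly GRCr8. The deviation of diabetic replicate 2 from the mean of the other 5 arrays was 0.80 for Pla2g4a, 0.80 for Ptgs1 and 0.78 for Ptgs2, followed by 0.62 for Ptgds, 0.50 for Ptger3 and 0.43 for Ptger4. It was 0.02 for Ptger2, -0.26 for Ptges, -0.35 for Ptges2 and -0.49 for Ptger1. On the same array the inflammatory cytokine gene Il1b, a known inducer of Ptgs2, had a log2 signal of 6.17. It had 3.44, 3.65 and 3.74 with SJG and 3.69 and 3.42 on the other diabetic arrays. Of the other listed inducers, Egr1 (10.05) and Cebpb (6.43) were also highest on diabetic replicate 2. The cytokine genes Tnf and Il1a were not, with 4.55 and 3.30 there, against 4.42 to 4.81 and 3.15 to 3.44 on the other 5 arrays. The glucocorticoid-induced gene Anxa1, whose product restrains phospholipase A2, had 8.76 there, against 6.95 to 7.60 on the other 5 arrays. Il1b and Anxa1 were singled out after their values were seen, and Tnf, Il1a and Cebpb were named later still. The macrophage markers had their highest mean, 7.50, on this array too. The part of these cells in the signals of Pla2g4a, Ptgs1 and Ptgs2 was not tested.

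**Figure D3:**
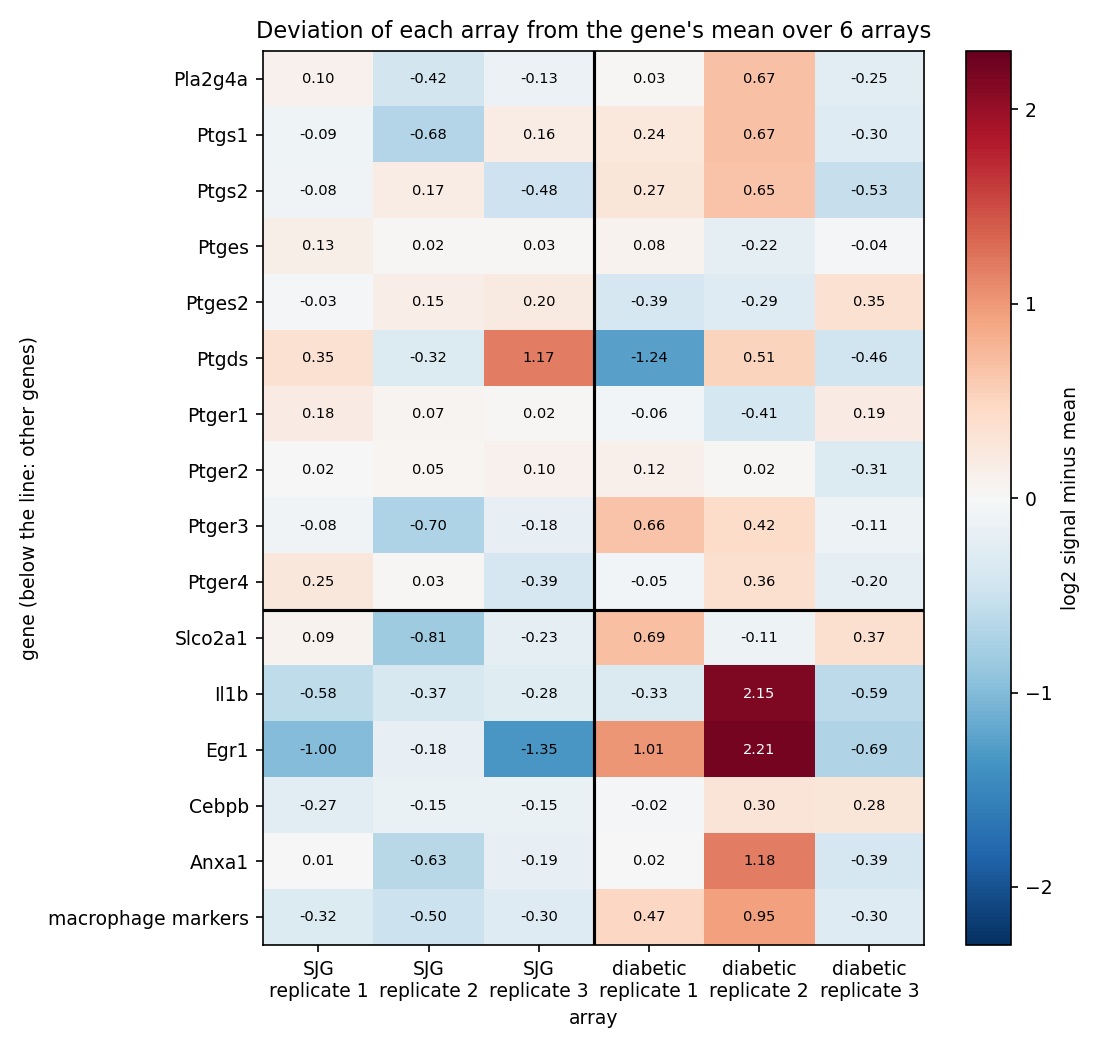
Log2 signal of each array minus the gene's mean over the 6 arrays, for the 10 prostaglandin genes (above the line), 5 further genes chosen after their values were seen and the mean of 9 macrophage markers (below the line), with SJG arrays on the left. Diabetic replicate 2 is high for Pla2g4a (0.67), Ptgs1 (0.67), Ptgs2 (0.65), Il1b (2.15) and the macrophage markers (0.95), and diabetic replicate 3 is low for the same 3 prostaglandin genes.

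The terminal synthase genes did not pass either. Ptgds encodes the lipocalin-type prostaglandin D synthase, which is both an enzyme and a secreted carrier of small lipophilic molecules. Its log2 signals were 7.70, 7.03 and 8.52 with SJG, against 6.11, 7.87 and 6.89 in the diabetic rats. The arrays spanned 2.41 log2 units, with SJG replicate 3 at the top and diabetic replicate 1 at the bottom, and diabetic replicate 2 lay within the SJG range. The means were 7.75 ± 0.75 with SJG and 6.96 ± 0.88 in the diabetic rats (SD, n = 3 arrays each). Ptgds had a log2 fold change of 0.80 and a 95% interval of -0.16 to 1.75, the widest of the 10 (limma, adjusted p = 0.772). The residual SD of Ptgds was higher than that of 99.4% of all genes. Ptgds was higher with SJG when diabetic replicate 2 (1.25) or SJG replicate 2 (1.16) was left out or when arrays were weighted (1.19), and it had 0.37 without diabetic replicate 1 and 0.41 without SJG replicate 3.

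Ptges encodes microsomal PGE synthase 1, which is induced together with COX-2 in inflammation. Its log2 signals were 6.63, 6.51 and 6.52 with SJG, against 6.58, 6.27 and 6.45 in the diabetic rats. Its arrays spanned 0.35, the narrowest range of the 10, and its lowest value fell on diabetic replicate 2, where Ptgs2 was highest. Ptges differed by 0.12 between the groups (log2, 95% interval -0.25 to 0.49), and by 0.04 without diabetic replicate 2 to 0.19 without diabetic replicate 1. Ptges2 encodes microsomal PGE synthase 2, which is made constitutively. It had 6.35, 6.54 and 6.58 with SJG, against 5.99, 6.09 and 6.73 in the diabetic rats. Diabetic replicates 1 and 2 lay below the SJG range and replicate 3 above it. Ptges2 differed by 0.22 (log2, 95% interval -0.26 to 0.69), and by 0.08 without diabetic replicate 1 to 0.45 without diabetic replicate 3. It passed the thresholds in none of these 6 comparisons. Ptges minus Ptges2 within each array differed by -0.09 between the groups, and the exact test has the same limit here.

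Egr1, which encodes a zinc finger factor known to act on the Ptges promoter in mouse and human cells, had log2 signals of 6.84, 7.66 and 6.49 with SJG, against 8.84, 10.05 and 7.15 in the diabetic rats. Of 5 known inducers of Ptgs2 and Ptges it was the 1 that passed, and their fold changes were negative in 3 and positive in 2. The median of -0.38 was the value of Cebpb, whose arrays did not overlap but which fell short of a 1.5-fold change. Il1b had -0.82, Il1a 0.11 and Tnf 0.10. Egr1 was lower with SJG, by a log2 difference of -1.68 with a standard error of 0.57 (limma, adjusted p = 0.747). Ptges, whose sequence above holds an EGR motif, had 0.12, and Ptger3, whose EGR motif overlaps a GC box, had -0.64. The part of Egr1 in the values of these genes was not tested. Without diabetic replicate 2, Egr1 had -1.0 and did not pass, and the call was also lost with the unmoderated test and with a robust variance trend.

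Around these 10 genes, most genes of the eicosanoid pathway did not pass. Among 13 other genes of arachidonic acid release, whose median log2 fold change was 0.05, 1 was higher and 12 missed the thresholds. The one was Pla2g5, which encodes a secreted phospholipase A2, at 4.95, 5.20 and 5.18 with SJG, against 4.75, 4.29 and 4.50 in the diabetic rats. The groups did not overlap, and the log2 fold change was 0.60 with a standard error of 0.18 (limma, adjusted p = 0.746). These signals were dim, below the median of the named genes on each array (5.56 to 5.66). Pla2g5 is a node of the study's gene network, which was chosen on these samples, so that it is not independent evidence. Without SJG replicate 2 or 3 or diabetic replicate 2 it had 0.55, 0.57 and 0.49 and fell short of a 1.5-fold change.

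Of 6 genes of prostaglandin transport and breakdown, 1 was lower and 5 missed the thresholds (median -0.03). It was Slco2a1, the prostaglandin transporter that carries PGE2 into cells for breakdown, with 7.53, 6.63 and 7.21 with SJG, against 8.13, 7.33 and 7.81 in the diabetic rats. Diabetic replicate 2 lay within the SJG range. It differed by -0.64 (log2, standard error 0.26; limma, adjusted p = 0.772), and Slco2a1 failed the thresholds without SJG replicate 2 (-0.39), SJG replicate 3 (-0.68), diabetic replicate 1 (-0.45) or diabetic replicate 3 (-0.61) and with 6 of 13 other alternatives, quantile normalization (-0.59) among them. Slco2a1 is also made by endothelial cells. None of 3 measured endothelial markers passed, and Pecam1 and Kdr of the same list were not measured. All 3 fold changes were negative (median log2 fold change -0.32), as were 49.7% of those of all genes. They were -0.37 for Cdh5, -0.32 for Emcn and -0.11 for Tie1, and only the arrays of Emcn did not overlap. These single markers were named after their values were seen. The mean log2 signal of the 3 endothelial markers did not overlap between the groups, at 7.63 to 7.72 on the SJG arrays and 7.82 to 8.16 on the diabetic arrays. The part of these cells in the change of Slco2a1 was not tested. Hpgd, which encodes the enzyme that inactivates PGE2, differed by -0.14 (log2, standard error 0.26) and was chosen after its values were seen.

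None of 6 other prostanoid synthase genes passed (median 0.08). The one nearest to the thresholds was Tbxas1, the thromboxane synthase of platelets and macrophages, with 4.92, 5.12 and 5.41 with SJG, against 5.79, 5.89 and 5.21 in the diabetic rats (log2 fold change -0.48; limma, adjusted p = 0.772). Diabetic replicates 1 and 2 were above the SJG range for Tbxas1 as they were for the macrophage markers, and the part of these cells was not tested. None of 4 other prostanoid receptor genes passed (median -0.11). Of them, the prostaglandin F receptor gene Ptgfr had the smallest p, with a log2 fold change of -0.14 (limma, adjusted p = 0.905).

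**Figure D4:**
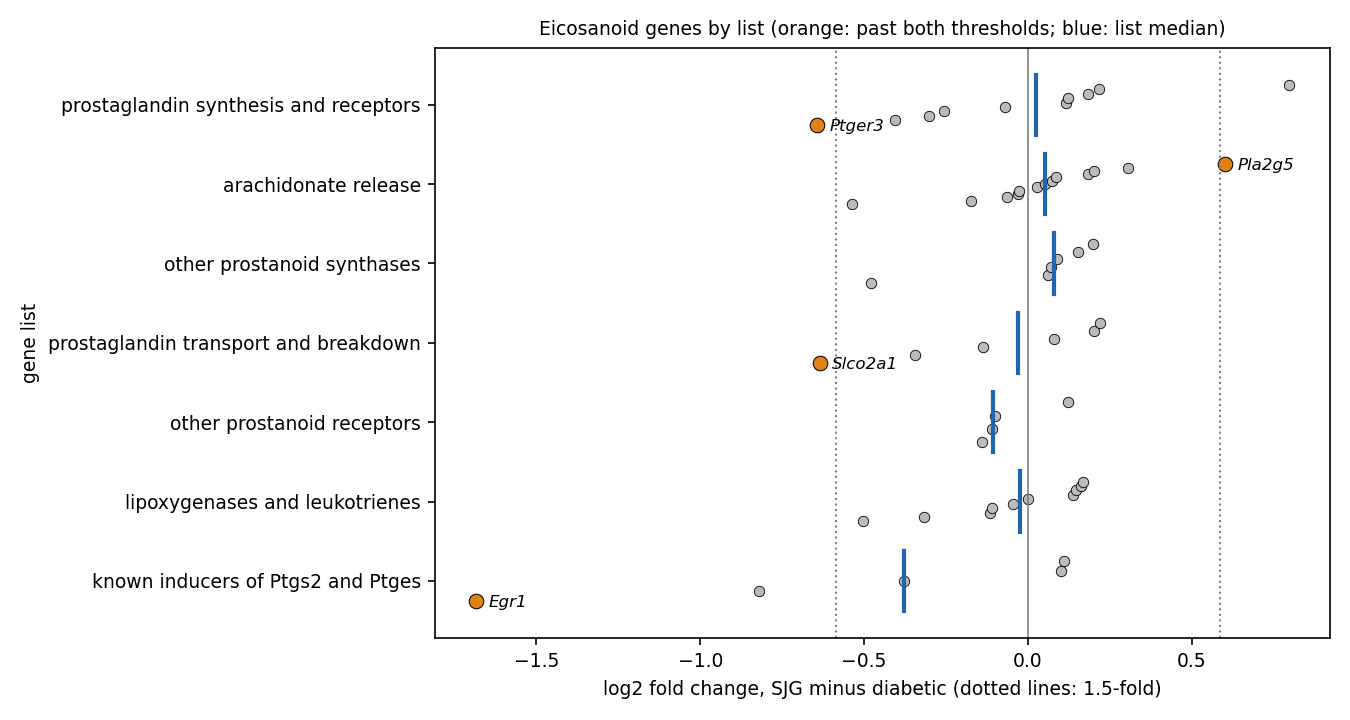
Log2 fold change (SJG minus diabetic, horizontal axis) of each measured gene in 7 lists of the eicosanoid pathway and its inducers, with 1 point per gene, the list median as a blue bar and genes past both thresholds in orange. Ptger3 (-0.64), Slco2a1 (-0.64) and Egr1 (-1.68) are lower and Pla2g5 (0.60) is higher, and the other points did not pass.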

How the data were processed

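RNA of 6 rat kidney samples was hybridized to whole-transcript Affymetrix arrays (Rat Gene 2.0 ST). The authors deposited 1 log2 signal per transcript cluster and array for 36685 clusters. The base was inferred: as natural logs, the highest value of 13.7 would mean an intensity of 889709, and a scanner's 16-bit scale ends at 65535. How the authors corrected background, normalized and summarised the probes was not stated in the sources used. The values were used as deposited, and the number of arrays limits the precision.

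Clusters with 1 gene symbol (18511) were named through the platform annotation, brought up to date by gene number (GRCr8), with the brightest cluster for each of 18166 genes. Clusters with several symbols (575) or none (17599) were not named. R 4.3.3 and limma 3.58.1 (lmFit, eBayes, prior degrees of freedom 6.94) compared SJG with diabetic arrays. All single-gene p-values are from limma unless another test is named, and adjusted p-values are Benjamini-Hochberg over 18166 genes. The methods' thresholds were kept (unadjusted p under 0.05, fold change above 1.5), and "higher" or "lower" refers to genes past them. The methods name a general test for the study and none for the arrays in particular. The code was tested on simulated data.

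The genes and lists were chosen with earlier results of these data known. Named are the 10 prostaglandin genes, each wider list's genes past the thresholds or otherwise the one with the smallest p, single markers of the cell types known to hold a prostaglandin gene (Nos1, Slc12a1, Aqp2), and genes said in the text to be picked later. The alternatives tried were the unmoderated test, a robust variance trend, a filter at the median signal, quantile normalization, 2 kinds of median centring (1 of them added after the data were seen), array weights, other uses of a gene's clusters, a replicate block, other fold thresholds, treat, and leaving out each array. Promoter sequences are from RefSeq (GRCr8). Ptges2 had none there.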

Additional observations from a re-analysis of the deposited data

How the results depend on the processing

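Ptger3 was the 1 prostaglandin gene past the thresholds with 9 of the 13 alternatives other than leaving out an array. The count was 0 with the unmoderated test, with a fold change above 2 and with treat against 1.2-fold, and 2 with array weights, where Ptgds passed. It was 0 to 3 when 1 array was left out. Of all genes, 565 passed, against 153 with the unmoderated test, 326 of the genes above the median signal, 1517 of all transcript clusters, 1133 at a fold change above 1.2, 106 above 2 and 313 with treat, and 403 to 1449 with 1 array left out. The share of higher genes was 31.9%, and 45.3% with arrays centred on their named genes. In the wider lists 3 genes passed, against 1 with the unmoderated test, 1 above 2-fold and 1 to 6 with 1 array left out. Ptger4 had 0.010 with quantile normalization. With 1 array left out Ptger4 ranged from -0.21 to 0.11, Ptgs2 from -0.59 to 0.0028, Ptger2 from -0.010 to 0.20, Ptgs2 minus Ptgs1 from -0.24 to 0.51 and Ptges minus Ptges2 from -0.32 to 0.12. The cause of these shifts was not tested. Same-numbered arrays did not deviate together (correlations -0.0364, -0.241 and -0.088 over all clusters), while differently numbered ones had -0.16 to 0.22. With 3 arrays in each group this cannot tell if the numbers pair the samples. With the replicate number as a block, 634 genes and 1 prostaglandin gene passed, Ptger3 (-0.64). The arrays carry no detection call, so how far dim genes such as Ptger2 and Pla2g5 lie above background is not known here.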

Other observations

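Among the genes of the neighbouring lipoxygenase branch, which turns arachidonic acid into leukotrienes, none of 10 passed the thresholds, 6 had negative and 4 positive fold changes, and the median log2 fold change was -0.02. Cysltr1, which encodes a receptor of cysteinyl leukotrienes, had log2 signals of 4.55, 4.35 and 4.82 with SJG, against 5.48, 5.19 and 4.56 in the diabetic rats (log2 fold change -0.50; limma, adjusted p = 0.772). Diabetic replicates 1 and 2 lay above the SJG range and replicate 3 within it, as was also so for the mean of the macrophage markers. Alox5ap, which presents arachidonic acid to 5-lipoxygenase in white blood cells, was looked at after its values were seen and had 6.53, 5.93 and 6.49 with SJG, against 6.81, 6.89 and 6.20 in the diabetic rats (log2 fold change -0.32; limma, adjusted p = 0.813).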
